A study of Mus musculus with 30 samples.

Results

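The tricarboxylic acid (TCA) cycle and the supply of succinyl-CoA were followed through 9 genes: Cs, Idh1, Idh2, Idh3a, Ogdh, Sucla2, Suclg1, Suclg2 and Mdh2. Each was the row of the count table whose Ensembl identifier carries that symbol in the GRCm38 annotation, so the 9 genes were picked by name out of 54532 genes in the table, as enzymes of the cycle. Murine erythroleukemia (MEL) cells are a mouse erythroid line that makes hemoglobin when treated with dimethyl sulfoxide (DMSO). Total RNA of WT and Abcb10-null cells was sequenced without DMSO (day 0) and at day 2 and day 5 of treatment with 1.5% DMSO. Each of these 6 groups had 5 libraries, labelled as biological replicates, which gave 30 libraries. The Abcb10-null cells were 1 single-cell clone made with a lentiviral CRISPR/Cas9 construct against exon 1 of Abcb10, a transporter of the mitochondrial inner membrane. The labels call the other cells WT and do not say whether they carried a control construct. A difference between the genotypes is therefore also a difference between that clone and the WT cells, and these cannot be told apart.

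In the TCA cycle, citrate synthase joins acetyl-CoA to oxaloacetate, isocitrate dehydrogenase makes 2-oxoglutarate, the 2-oxoglutarate dehydrogenase complex makes succinyl-CoA, succinyl-CoA ligase turns it into succinate while forming a nucleoside triphosphate, and malate dehydrogenase restores oxaloacetate. In erythroid cells succinyl-CoA has another use: with glycine it is the substrate of 5-aminolevulinate synthase (Alas1 in most cells, Alas2 in erythroid cells), the enzyme that starts heme synthesis. The NAD-linked isocitrate dehydrogenase of the cycle is built from Idh3a, Idh3b and Idh3g, while Idh2 in mitochondria and Idh1 in the cytosol use NADP.

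Total counts ranged from 9906783 to 20157768 per library (median 16492116.5), and the counts of the 9 genes in single libraries from 372 to 6168. Over all genes the spread between libraries exceeded the counting error, which was not compared for each of the 9. The spread of Suclg2 was small in Abcb10-null cells at day 0, with an SD of 2.54 on a mean of 106 CPM and 1640 to 2195 counts. Levels are given as CPM, counts relative to the library total, after TMM scaling over all 30 libraries. A gene was called where edgeR's quasi-likelihood test gave a Benjamini-Hochberg adjusted p under 0.05 over all genes tested, and log2 fold changes are given with their standard errors. Abcb10 itself was lower in Abcb10-null cells at each day (log2 fold change -0.68 ± 0.06, -1.54 ± 0.19 and -2.54 ± 0.12 at days 0, 2 and 5), with edgeR adjusted p of 1.16e-07, 0.000551 and 5.51e-08. No libraries overlapped, with 112 to 126 CPM in WT against 67.2 to 79.4 CPM in Abcb10-null libraries at day 0, 475 to 661 against 162 to 312 CPM at day 2 and 1152 to 1264 against 177 to 237 CPM at day 5. An antisense gene, Gm45890, overlaps 10.31% of the exon bases of Abcb10, and the strand setting of the counting is not given in the sources used here. Of the erythroid markers, 11 of 11 tested were called lower in Abcb10-null cells at day 5, where their summed level was 6908 to 16902 CPM in WT and 2900 to 3983 CPM in Abcb10-null libraries. At day 0, 3 of 10 were called lower and 1, Tfrc, higher, and at day 2, 6 of 11 were called lower and none higher. Over all genes tested, the shares called lower and higher were 16.2% and 19.7% at day 0. They were 16.9% and 14.9% at day 2 and 17.8% and 19.8% at day 5. The summed erythroid markers at day 0 were at 1852 to 2106 CPM in WT against 2026 to 2207 CPM in Abcb10-null libraries. The summed myeloid and mast cell markers reached 29.97 to 52.2 CPM in WT and 58.2 to 85.0 CPM in Abcb10-null libraries at day 5, with Ctsg and Cpa3 at or under 3 counts in all 10, and the summed lymphoid markers stayed at or under 9.14 CPM. The summed megakaryocyte markers were higher than these, at 260 to 431 CPM in WT and 274 to 606 CPM in Abcb10-null libraries at day 5. Of them, 2 of 5 tested were called higher and none lower in Abcb10-null cells at day 0. At day 2, 2 of 4 were called lower and none higher, and at day 5, 1 of 4 in each direction. The part of all these markers in the results was not tested. In bulk RNA, fewer cells of a type and less RNA per cell cannot be told apart.

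Some day 5 libraries stood apart. WT library 5 had the lowest share of globin counts of the 5 WT libraries at day 5 (0.154% against 0.246% to 0.312%) and the fewest genes with counts (18948), and 3 WT and 2 Abcb10-null libraries at day 5 had counts in more than 25000 genes (25916 to 36511). Where it ended a call of these genes between genotypes at day 5 or in an interaction, or moved a value far, the day 5 result is also given without WT library 5 or, as an alternative chosen after the data were seen, with only the 2 WT and 3 Abcb10-null day 5 libraries at or below 25000 genes. The 2 WT libraries kept in that alternative were 1 and 5, so it still holds WT library 5, as 1 of only 2. What set WT library 5 and the libraries above 25000 genes apart was not tested.

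All 9 genes passed the filter on low counts in each of the 11 comparisons. Per kilobase of joined exons, Idh2 was the most abundant of them in undifferentiated WT cells, at 107 ± 5.08 CPM per kb (SD, n = 5), followed by Mdh2 at 59.4 ± 6.97, Sucla2 at 49.4 ± 4.62, Idh1 at 44.6 ± 2.52 and Idh3a at 43.4 ± 3.60 CPM per kb. Suclg1 (35.1 ± 2.49), Suclg2 (20.1 ± 1.12), Cs (19.4 ± 2.80) and Ogdh (7.99 ± 1.80 CPM per kb) came below. The libraries of Sucla2 and Idh1, of Idh1 and Idh3a and of Suclg2 and Cs overlapped, and the other neighbours in this order stood apart. In undifferentiated Abcb10-null cells Idh1, at 66.0 ± 2.87 CPM per kb, came next after Idh2, and its libraries stood apart from those of Idh2 above it and of Sucla2 below it. At day 2 Idh2 was again the highest on this scale, at 73.7 ± 12.4 in WT and 107 ± 12.8 CPM per kb in Abcb10-null cells, and Ogdh the lowest, at 12.9 ± 3.43 and 7.17 ± 2.11. In WT cells at day 2 each neighbouring pair overlapped except Idh2 with Mdh2 and Idh1 with Idh3a. In WT cells at day 5 Idh2 (35.2 ± 10.7), Sucla2 (34.9 ± 3.02) and Idh1 (34.4 ± 6.997 CPM per kb) overlapped at the top. In Abcb10-null cells at day 5 Idh2 (66.9 ± 13.4) still stood apart from Sucla2 (38.8 ± 5.06 CPM per kb).

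**Figure D1:**
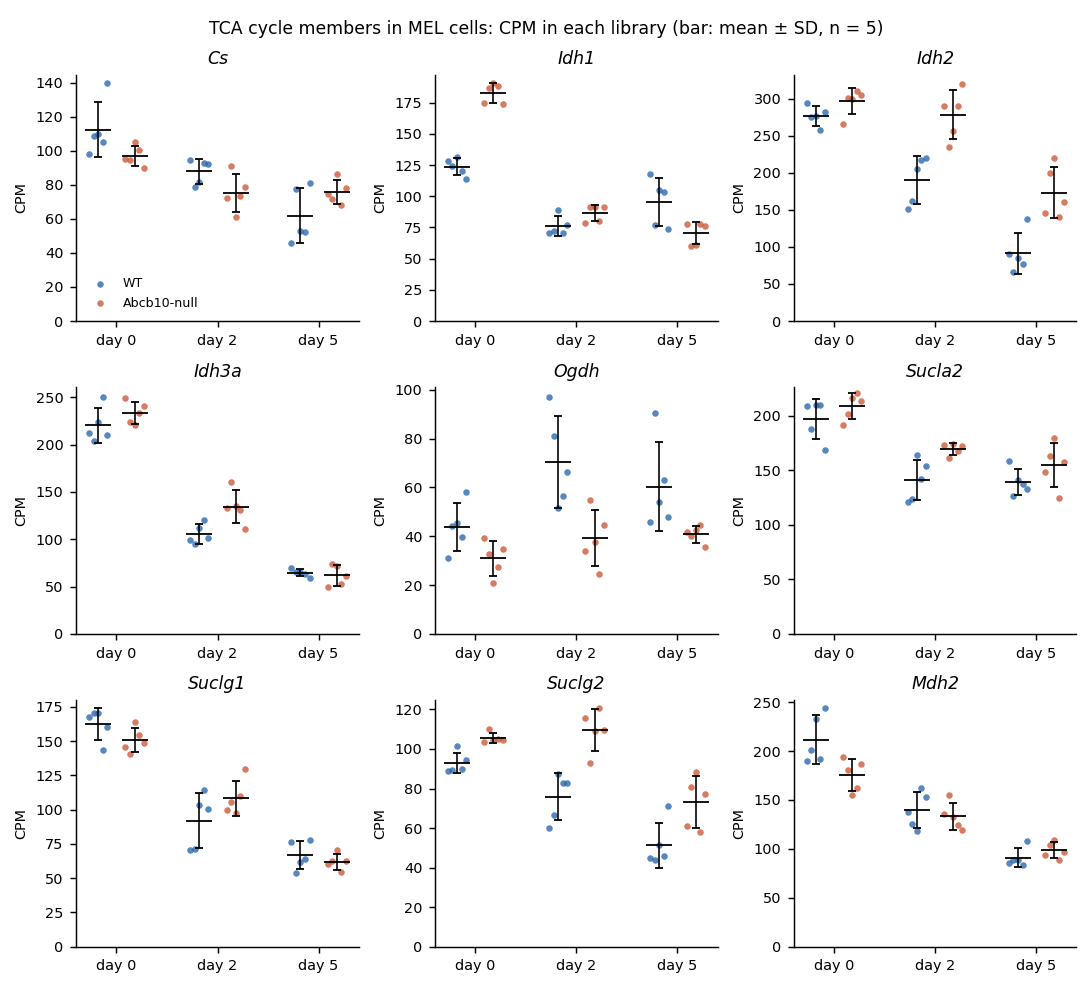
CPM (vertical axis, from 0) of each of the 9 genes in each library by day, with WT in blue, Abcb10-null in orange and bars for the mean ± SD (n = 5). Ogdh is the gene whose WT libraries lie higher at days 2 and 5 than at day 0 on average, Idh2 and Suclg2 lie higher in Abcb10-null cells at days 2 and 5, and Idh1 lies at 174 to 191 CPM in Abcb10-null cells at day 0 against 114 to 132 CPM in WT.

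The first question was how the transcripts of the cycle changed as the cells differentiated. In WT cells 8 of the 9 genes fell and 1, Ogdh, rose by day 2, where 30.7% of all genes tested were called lower and 31.5% higher. Against day 0, day 5 gave the same counts in WT, 8 lower and Ogdh higher, beside 34.7% and 36.5% of all genes. The median log2 fold change of the 9 genes was -0.54 at day 2 and -0.86 at day 5, and that of all genes tested 0.01 and 0.02. Between days 2 and 5 WT cells lowered 5 of the 9 further (Cs, Idh2, Idh3a, Mdh2 and Suclg2) and raised none, beside 16.4% lower and 17% higher over all genes. That count was 1, Idh3a, with only the 2 WT day 5 libraries at or below 25000 genes, and the day 5 count against day 0 was 7, without Idh1 (adjusted p = 0.0562) and Ogdh. Without 1 library, the fall of Suclg2 to day 2 was called in 6 of 10 fits, and the falls of Cs and Suclg2 from day 2 to day 5 in 5 and 7 of 10.

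In Abcb10-null cells 6 genes fell by day 2 (Cs, Idh1, Idh3a, Mdh2, Sucla2 and Suclg1) and none rose, where 20.1% of all genes tested were called lower and 23.1% higher. The fall of Cs there was called in 4 of 10 fits without 1 library. Idh2, Suclg2 and Ogdh were not called in this comparison, with log2 fold changes of -0.06 ± 0.10, 0.08 ± 0.09 and 0.37 ± 0.21. By day 5, 8 had fallen below day 0 and Ogdh had risen, beside 33.3% lower and 33.9% higher over all genes. From day 2 to day 5, 5 fell (Idh2, Idh3a, Mdh2, Suclg1 and Suclg2) and none rose, beside 16.6% and 14.4%. The comparisons within a genotype share their day 0 or day 2 libraries, so their counts are not independent of each other.

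The second question was where the genotypes differed. At day 0, Idh1 and Suclg2 were called higher and Mdh2 and Ogdh lower in Abcb10-null cells, that is 2 of 9 in each direction, where 19.7% of all genes tested were called higher and 16.2% lower. At day 2, Idh2 and Suclg2 were higher and Ogdh lower, beside 14.9% and 16.9% over all genes. At day 5, Idh2 and Suclg2 were higher and Idh1 and Ogdh lower, beside 19.8% and 17.8%. The share of the 9 genes called was thus near that of all genes in these comparisons. With only the day 5 libraries at or below 25000 genes, 0 of the 9 were called by edgeR between genotypes at day 5, 2 of them (Idh1 and Idh2) had an unadjusted p under 0.05, and no other tool was run on those 5 libraries. They include WT library 5. Cs, Idh3a, Sucla2 and Suclg1 were not called between genotypes at any day by edgeR in the main fits of 1 day each. Without 1 library, Cs was called in 3 of 10 fits at day 0 and in 1 of 10 at day 2. Suclg1 was called in 1 of 10 such fits at day 0 and Idh3a in 1 of 10 at day 2. Sucla2 was called in none. At day 0 edgeR also called Cs with the size factors of DESeq2, and after the removal of gene classes described below. Cs was near the threshold at day 0 (log2 fold change -0.22 ± 0.08, adjusted p = 0.0522) and was called there by DESeq2 (-0.23, adjusted p = 0.041), and at day 2 Idh3a and Sucla2 were called with all 30 libraries in one fit (0.34 and 0.27, edgeR adjusted p = 0.00878 and 0.0279).

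**Figure D2:**
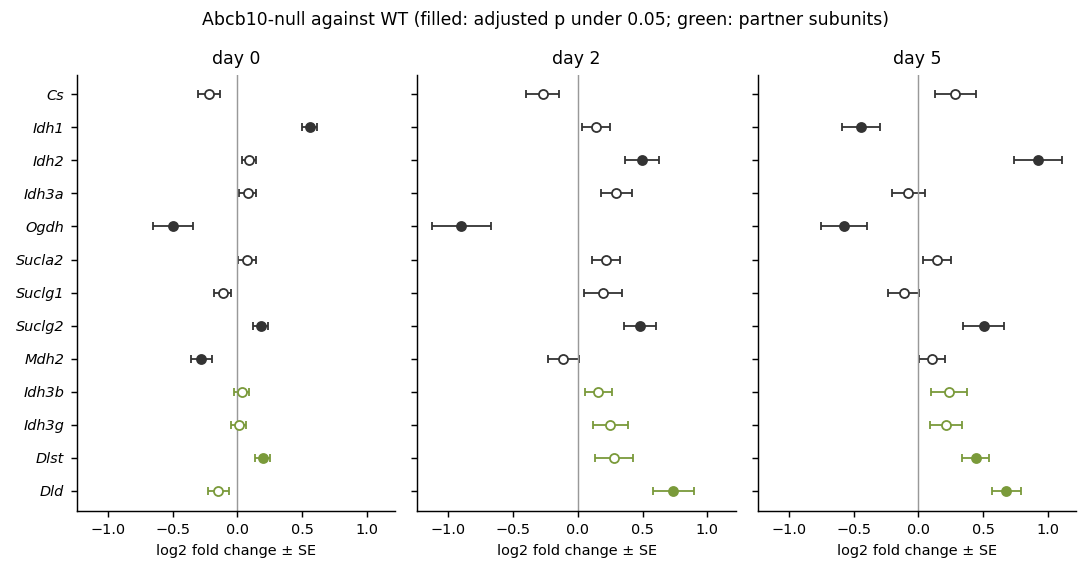
Log2 fold change between genotypes, as Abcb10-null relative to WT (horizontal axis, ± SE, n = 5 per genotype) at each day for the 9 genes in black and for the partner subunits Idh3b, Idh3g, Dlst and Dld in green, filled where the edgeR adjusted p was under 0.05. Ogdh is at -0.50, -0.90 and -0.57, while its complex partner Dld is at 0.74 and 0.68 at days 2 and 5.

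A further set of tests asked whether the change from day 0 itself differed between genotypes. For day 2, the interaction was called for Idh2 (0.45 ± 0.15, edgeR adjusted p = 0.0363) in the positive and Idh1 (-0.37 ± 0.12, adjusted p = 0.0308) in the negative direction, beside 12% and 10.8% of all genes. For day 5, it was called for Idh2, Cs and Mdh2 in the positive and Idh1 in the negative direction, beside 16.8% and 14.7%. Idh1 and Idh2 kept their day 5 interaction call without any 1 of the 20 libraries and with only the day 5 libraries at or below 25000 genes. The other calls were less firm: the day 2 interaction of Idh2 was called in 8 of 20 fits that each left out 1 library, and the day 5 interaction of Cs in 5 and of Mdh2 in 12 of 20. With only the day 5 libraries at or below 25000 genes the Cs and Mdh2 interactions were 0.53 ± 0.22 and 0.38 ± 0.17, neither called (edgeR adjusted p = 0.0969 and 0.124). Without WT library 2 of day 0 neither Idh1 nor Idh2 was called in the day 2 interaction (0 calls by edgeR, with 3 genes at an unadjusted p under 0.05).

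**Figure D3:**
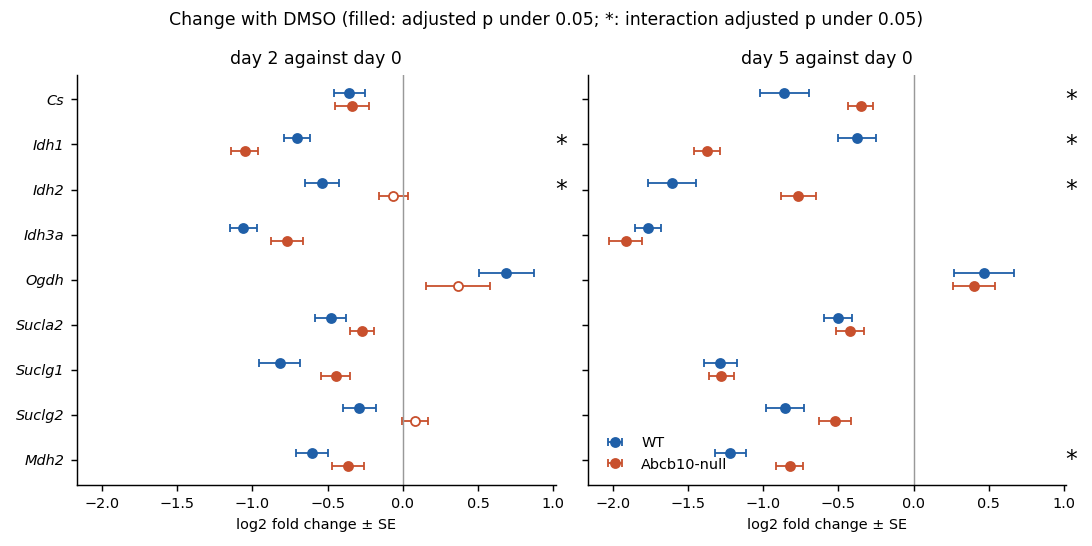
Log2 fold change (horizontal axis, ± SE, n = 5 libraries per day) of day 2 and of day 5 against day 0 in WT (blue) and Abcb10-null cells (orange), filled where the edgeR adjusted p was under 0.05, with an asterisk where the interaction of genotype and day was called. Idh1 and Idh2 move apart in opposite directions: at day 5 Idh1 is at -0.38 in WT and -1.37 in Abcb10-null cells, and Idh2 at -1.61 and -0.77.

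Citrate synthase (Cs, ENSMUSG00000005683, chr10:128337734-128362479 in GRCm38, plus strand) commits acetyl-CoA to the cycle. In WT cells its level was 98.0, 109, 109.7, 105 and 140.0 CPM at day 0 and 46.0, 77.5, 52.8, 52.3 and 80.7 CPM at day 5. The Abcb10-null libraries held 95.1, 94.5, 105, 100.5 and 90.0 CPM at day 0 and 74.3, 71.7, 86.4, 68.3 and 77.8 CPM at day 5. All day 5 libraries lay below all day 0 libraries within each genotype, and the genotypes overlapped at each day. The fall to day 5 was larger in WT (log2 fold change -0.86 ± 0.16, edgeR adjusted p = 0.000343) than in Abcb10-null cells (-0.35 ± 0.08, adjusted p = 0.00154), with an interaction of 0.52 ± 0.19 (adjusted p = 0.0403).

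Idh3a (ENSMUSG00000032279, chr9:54586334-54604661, plus strand) encodes the catalytic alpha subunit of the NAD-linked isocitrate dehydrogenase. From day 0 to day 5 it fell the most of the 9 genes in Abcb10-null cells, and also in WT with all libraries, while without WT library 5 Idh2 fell further there (-1.81 against -1.74). In WT its level went from 212, 204, 224, 250.3 and 211 CPM at day 0 to 69.7, 65.6, 65.7, 63.4 and 59.3 CPM at day 5. In Abcb10-null cells it went from 249, 224, 221, 233 and 240.5 CPM to 49.6, 73.3, 71.9, 52.4 and 61.1 CPM. No day 5 library reached any day 0 library, and the genotypes overlapped at each day. The log2 fold change at day 5 was -1.77 ± 0.09 in WT (3.4-fold lower, edgeR adjusted p = 2.25e-09) and -1.91 ± 0.11 in Abcb10-null cells (3.76-fold lower, adjusted p = 4.45e-10), and the difference of the 2 changes, -0.14 ± 0.14, was not called. Its regulatory partners fell less: Idh3b by 0.75 ± 0.14 and Idh3g by 0.50 ± 0.12 on the log2 scale in WT, and Idh3b by 0.54 ± 0.07 and Idh3g by 0.29 ± 0.07 in Abcb10-null cells, each called. Neither partner was called between genotypes at any day.

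Idh2 (ENSMUSG00000030541, chr7:80094846-80115392, minus strand) encodes the mitochondrial NADP-linked isocitrate dehydrogenase. At day 0 the WT libraries held 293, 275, 277, 257 and 282 CPM and the Abcb10-null libraries 266, 300.2, 299.7, 311 and 304 CPM. The genotypes overlapped there, and the log2 difference of 0.09 ± 0.06 was not called (edgeR adjusted p = 0.232). By day 2 WT had dropped to 151, 162, 205, 217 and 219.7 CPM, while the Abcb10-null libraries still held 289.7, 234, 257, 290.1 and 319.7 CPM. All Abcb10-null libraries lay above all WT libraries, by 0.50 ± 0.13 on the log2 scale (1.41-fold, edgeR adjusted p = 0.0143). At day 5 the WT libraries held 90.2, 65.8, 85.4, 76.3 and 138 CPM and the Abcb10-null libraries 145, 199, 219.6, 141 and 161 CPM, again without overlap, although WT library 5 came close to the lowest Abcb10-null library. The day 5 difference was 0.92 ± 0.19 (1.90-fold, adjusted p = 0.002), 1.11 ± 0.15 without WT library 5, and 0.72 ± 0.23 with adjusted p = 0.0971 with only the libraries at or below 25000 genes. From day 0 to day 5 Idh2 fell 3.04-fold in WT and 1.70-fold in the Abcb10-null clone, and the interaction was 0.85 ± 0.21 (adjusted p = 0.00292). The day 2 and day 5 differences between genotypes were called in all 10 fits that each left out 1 library.

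Idh1 (ENSMUSG00000025950, chr1:65158616-65186500, minus strand) encodes the cytosolic NADP-linked enzyme and crossed between genotypes. At day 0 the WT libraries held 128, 124, 132, 121 and 114 CPM and the Abcb10-null libraries 175, 187, 191, 189 and 174 CPM. All Abcb10-null libraries were higher, by 0.56 ± 0.06 on the log2 scale (1.47-fold, edgeR adjusted p = 8.22e-07), and this was called in all 10 fits without 1 library. At day 2 the values were 70.7, 72.1, 89.2, 70.9 and 76.8 CPM in WT against 78.2, 91.6, 91.1, 80.5 and 91.4 CPM in Abcb10-null cells, which overlapped and were not called (0.14 ± 0.11, adjusted p = 0.341). At day 5 they were 118, 76.7, 105, 103 and 73.3 CPM in WT against 77.5, 60.4, 61.2, 77.6 and 75.7 CPM in Abcb10-null cells. WT libraries 2 and 5 lay within the Abcb10-null range and the other WT libraries above it. The day 5 difference of -0.44 ± 0.15 (1.36-fold lower, adjusted p = 0.0299) was called in 5 of 10 fits without 1 library, and was -0.54 ± 0.13 (adjusted p = 0.00569) without WT library 5 and -0.54 ± 0.22 (adjusted p = 0.17) with only the libraries at or below 25000 genes. The change from day 0 to day 5, by contrast, was -0.38 ± 0.13 in WT and -1.37 ± 0.09 in Abcb10-null cells, with a difference of -0.99 ± 0.16 (adjusted p = 4.84e-05).

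Ogdh (ENSMUSG00000020456, chr11:6291633-6356642, plus strand) encodes the E1 subunit of the 2-oxoglutarate dehydrogenase complex, the step that makes succinyl-CoA within the cycle. It was the least abundant of the 9 genes per kilobase in all groups but WT day 5, the gene that rose with DMSO, and lower in Abcb10-null cells at all 3 days. At day 0 the WT libraries held 31.0, 44.1, 45.4, 39.6 and 57.9 CPM and the Abcb10-null libraries 39.4, 32.9, 20.7, 27.4 and 34.7 CPM, which overlapped (log2 fold change -0.50 ± 0.15, edgeR adjusted p = 0.0171). At day 2 the levels were 97.1, 81.2, 51.4, 56.5 and 66.2 CPM in WT against 34.0, 55.0, 37.8, 24.3 and 44.5 CPM in Abcb10-null cells. Here 1 Abcb10-null library, library 2, lay above the lowest WT library and the other 4 below all WT libraries, and the difference was -0.90 ± 0.23 (1.87-fold lower, adjusted p = 0.0117). At day 5 they were 45.9, 90.6, 54.0, 63.1 and 47.9 CPM in WT against 41.7, 40.2, 42.5, 44.7 and 35.4 CPM in Abcb10-null cells. All Abcb10-null libraries lay below all WT libraries, with a difference of -0.57 ± 0.18 (adjusted p = 0.022). That value was -0.66 ± 0.18 (adjusted p = 0.0099) without WT library 5 and -0.19 ± 0.16 (adjusted p = 0.5) with only the libraries at or below 25000 genes, which leave out WT library 2, the highest. Over fits that each left out 1 library the difference was called in 9 of 10 at day 0 (not without WT library 5), 10 of 10 at day 2 and 9 of 10 at day 5 (not without Abcb10-null library 5). The rise with DMSO was 0.69 ± 0.18 at day 2 in WT (adjusted p = 0.00541) and 0.47 ± 0.20 at day 5 (adjusted p = 0.0499). The day 5 rise in WT was called in 3 of 10 fits without 1 library and was 0.10 ± 0.19 (adjusted p = 0.664) with only the day 5 libraries at or below 25000 genes, and in Abcb10-null cells, at 0.40 ± 0.14 (adjusted p = 0.018), in 9 of 10. The interaction was not called at day 2 (-0.34 ± 0.29, adjusted p = 0.405) or day 5 (-0.06 ± 0.26, adjusted p = 0.89).

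The other subunits of the complex did not follow Ogdh. Dlst encodes its E2 succinyltransferase core. It was at 174 ± 18.2 CPM in WT against 237 ± 22.9 CPM in Abcb10-null cells at day 5, with all Abcb10-null libraries higher (0.44 ± 0.10, edgeR adjusted p = 0.00451), and was also called higher at day 0 (0.20 ± 0.06). Dld, the E3 subunit that the complex shares with pyruvate dehydrogenase, held 117, 116, 164, 139.9 and 143 CPM in WT against 305, 187, 242, 265 and 173 CPM in Abcb10-null cells at day 2. All Abcb10-null libraries were higher than all WT libraries, by 0.74 ± 0.16 (1.67-fold, adjusted p = 0.00627), and again at day 5 by 0.68 ± 0.11 (adjusted p = 0.000571). Dld fell by 0.94 ± 0.11 on the log2 scale in WT from day 0 to day 2 and was at 0.01 ± 0.15 in Abcb10-null cells, an interaction of 0.93 ± 0.19 (adjusted p = 0.00249). With only the day 5 libraries at or below 25000 genes neither Dlst nor Dld was called at day 5, with adjusted p of 0.195 and 0.0593.

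Since Ogdh moved against the other genes, its promoter sequence is shown beside those of Idh1 and Suclg2, 2 genes higher in Abcb10-null cells at day 0. RefSeq promoter windows (GRCm38.p6), the 250 bases before a RefSeq start, matched 8 of the 9 genes. For 7 of them the window ended within 169 bases of the annotated gene start. RefSeq held 6 windows for Ogdh and 2 for Idh1, and the sequence and matches given are those of 1 window each. Idh3a had no entry, and the window of Sucla2 lay 27467 bases from the annotated start. In the 250 bases before the start, 8 short motifs were searched on both strands: AGATAA for GATA factors, TGATAA for the same, GCATGCGC for NRF1, CCGGAAG for ETS factors, CCAAT for NFY, CACGTG for E-boxes, TGACGT for part of a cyclic AMP response element, and TGACGTCA for the whole element, which holds TGACGT on both strands and was searched after the windows were seen. Capitals mark the matches, and the printed runs stop at the annotated gene, read 5′ to 3′ on the gene's strand, from chr11:6291409-6291632 (plus) for Ogdh, chr1:65186501-65186729 (minus) for Idh1 and chr6:95718847-95719096 (minus) for Suclg2.
Ogdh: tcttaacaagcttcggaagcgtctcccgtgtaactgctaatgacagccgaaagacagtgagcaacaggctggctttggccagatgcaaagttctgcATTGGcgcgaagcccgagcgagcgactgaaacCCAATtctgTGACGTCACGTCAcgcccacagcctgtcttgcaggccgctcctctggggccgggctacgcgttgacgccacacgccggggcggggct
Idh1: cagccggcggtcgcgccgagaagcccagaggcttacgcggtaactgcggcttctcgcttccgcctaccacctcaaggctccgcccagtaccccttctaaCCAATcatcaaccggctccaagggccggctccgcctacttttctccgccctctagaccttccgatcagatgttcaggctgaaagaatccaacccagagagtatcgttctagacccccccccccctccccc
Suclg2: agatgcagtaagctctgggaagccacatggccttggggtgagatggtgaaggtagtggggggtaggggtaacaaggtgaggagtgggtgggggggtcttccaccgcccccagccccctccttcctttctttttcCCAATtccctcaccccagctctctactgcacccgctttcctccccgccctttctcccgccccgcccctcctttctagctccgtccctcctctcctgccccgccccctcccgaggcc
The Ogdh window held CCAAT at -154 (reverse strand) and -122, and TGACGTCA at -113 followed by an overlapping TGACGT on the reverse strand at -106, counted as the leftmost base relative to the RefSeq start. Of the 7 windows, those of Ogdh and Mdh2 held TGACGT and TGACGTCA, against 6.47% and 1.55% of all 32851 RefSeq windows. CCAAT was in 5 of the 7 (Cs, Idh1, Idh2, Ogdh and Suclg2), against 33.8% of all windows. TGATAA was in the Mdh2 window (7.94% of all windows hold it), and none of the 7 held AGATAA (9.99%), GCATGCGC (2.26%), CCGGAAG (6.91%) or CACGTG (6.02%). The window of Mdh2 ended 169 bases inside the annotated gene, so its whole element at -127 lay within that gene. The CCAAT of Idh2 at -44 spanned the annotated gene start. These are matches of letters in a window, and no binding was measured here.

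Succinyl-CoA ligase pairs the shared alpha subunit Suclg1 (ENSMUSG00000052738, chr6:73248382-73276911, plus strand) with an ATP-forming beta subunit, Sucla2 (ENSMUSG00000022110, chr14:73525319-73596142, plus strand), or a GTP-forming one, Suclg2 (ENSMUSG00000061838, chr6:95473009-95718800, minus strand). The alpha subunit fell with differentiation in both genotypes. Suclg1 went from 168, 170.3, 170.3, 143 and 159.9 CPM at day 0 to 76.2, 54.1, 61.5, 63.8 and 77.9 CPM at day 5 in WT. In Abcb10-null cells it went from 146, 141, 164, 154 and 149 CPM to 60.1, 62.3, 70.2, 54.3 and 62.6 CPM. The day 5 libraries lay below all day 0 libraries in each genotype, and the log2 fold changes, -1.28 ± 0.11 and -1.28 ± 0.08, differed by 0.02 ± 0.13.

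Sucla2 fell by day 2 in both genotypes and was not called lower after it. Its mean level was 197 ± 18.4, 141 ± 18.7 and 139 ± 12.1 CPM in WT against 209 ± 12.1, 169.8 ± 5.33 and 155 ± 20.2 CPM in Abcb10-null cells at days 0, 2 and 5 (SD, n = 5). The genotypes overlapped at each day. Its log2 fold change from day 0 to day 5 was -0.50 ± 0.09 in WT and -0.42 ± 0.09 in Abcb10-null cells, both called, and from day 2 to day 5 -0.02 ± 0.12 and -0.13 ± 0.11, neither called.

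Suclg2 was higher in Abcb10-null cells at all 3 days. At day 0 the WT libraries held 89.0, 89.5, 101, 89.9 and 94.4 CPM and the Abcb10-null libraries 104, 110.1, 105, 105 and 105 CPM. The groups did not overlap, although the difference was small (0.18 ± 0.06, 1.13-fold, edgeR adjusted p = 0.0251) and was called in 6 of 10 fits without 1 library. At day 2 the levels were 59.8, 66.8, 87.5, 82.6 and 83.0 CPM in WT against 116, 92.8, 109, 121 and 109.8 CPM in Abcb10-null cells, again without overlap (0.48 ± 0.12, 1.40-fold, adjusted p = 0.0119), and this was called in all 10 such fits. At day 5 they were 45.0, 43.7, 51.6, 45.7 and 71.0 CPM in WT against 61.2, 80.9, 88.4, 58.2 and 77.0 CPM in Abcb10-null cells. WT library 5 lay above 2 Abcb10-null libraries and the other 4 below all 5. The day 5 difference was 0.50 ± 0.16 (adjusted p = 0.023), called in 5 of 10 fits without 1 library, 0.63 ± 0.14 (adjusted p = 0.00291) without WT library 5, and 0.40 ± 0.23 (adjusted p = 0.316) with only the libraries at or below 25000 genes. Its interactions of genotype and day, 0.35 ± 0.14 at day 2 and 0.34 ± 0.17 at day 5, were not called, and the day 5 one was called without WT library 5 (0.48 ± 0.15, adjusted p = 0.0124). A processed pseudogene, Gm15163, is 98.92% identical to Suclg2 transcripts over 1302 bases and held 5243 counts over the 30 libraries against 42432 for Suclg2. Reads of the 2 copies cannot be fully told apart, and with their counts added together each Suclg2 call was the same in all 11 comparisons.

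Mdh2 (ENSMUSG00000019179, chr5:135778480-135790398, plus strand) encodes mitochondrial malate dehydrogenase, which closes the cycle. At day 0 the WT libraries held 190.2, 201, 233, 191 and 244 CPM and the Abcb10-null libraries 194, 180.2, 155, 162 and 187 CPM. The groups overlapped by 1 Abcb10-null library (library 1) and the difference was -0.28 ± 0.08 (1.21-fold lower, edgeR adjusted p = 0.0125), called in all 10 fits without 1 library. At days 2 and 5 the genotypes were not called apart (-0.11 ± 0.12 and 0.11 ± 0.10). Day 5 levels were 85.9, 88.5, 89.1, 83.8 and 108 CPM in WT against 93.9, 104, 109.5, 89.0 and 96.9 CPM in Abcb10-null cells, below all day 0 libraries of the same genotype. The fall from day 0 was 2.33-fold in WT and 1.77-fold in Abcb10-null cells, an interaction of 0.40 ± 0.14 (adjusted p = 0.0281).

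To compare alternative enzymes free of library scaling, the log2 ratio of 2 genes was taken within each library, and 9 genotype comparisons of 3 ratios were tested with a two-sided exact permutation test, in which 5 against 5 libraries cannot go below p = 0.00794. The Idh1 to Idh2 ratio was -1.19, -1.14, -1.07, -1.09 and -1.31 in WT and -0.60, -0.68, -0.65, -0.72 and -0.81 in Abcb10-null cells at day 0. Every Abcb10-null library was higher, and the means differed by 0.47 (exact permutation p = 0.00794, Benjamini-Hochberg adjusted p = 0.0357). At day 5 the same ratio was 0.39, 0.22, 0.29, 0.44 and -0.90 in WT and -0.90, -1.72, -1.83, -0.86 and -1.08 in Abcb10-null cells. The order was thus turned round, with WT library 5 inside the Abcb10-null range and the other 4 WT libraries above it, and the difference of -1.36 did not pass after adjustment (exact permutation p = 0.0238, adjusted p = 0.0536). It was -1.61 (adjusted p = 0.0179, exact permutation) without WT library 5. The day 2 difference was -0.36 (exact permutation p = 0.0476, adjusted p = 0.0833).

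The Idh3a to Idh2 ratio differed by -0.01 at day 0 and -0.21 at day 2, neither passing. At day 5 it was -0.37, -0.00, -0.38, -0.26 and -1.21 in WT and -1.54, -1.44, -1.60, -1.42 and -1.39 in Abcb10-null cells. All Abcb10-null libraries were lower, by 1.03 on average (exact permutation p = 0.00794, adjusted p = 0.0357). The Suclg2 to Sucla2 ratio, GTP-forming over ATP-forming subunit, was -1.01, -0.89, -0.90, -0.78 and -0.89 in WT and -0.58, -0.80, -0.67, -0.47 and -0.65 in Abcb10-null cells at day 2. WT library 4 lay within the Abcb10-null range and the other 4 below it, and the difference was 0.26 (exact permutation p = 0.0159, adjusted p = 0.0476). It was 0.10 at day 0 (adjusted p = 0.366) and 0.37 at day 5 (exact permutation p = 0.0556, adjusted p = 0.0833).

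**Figure D4:**
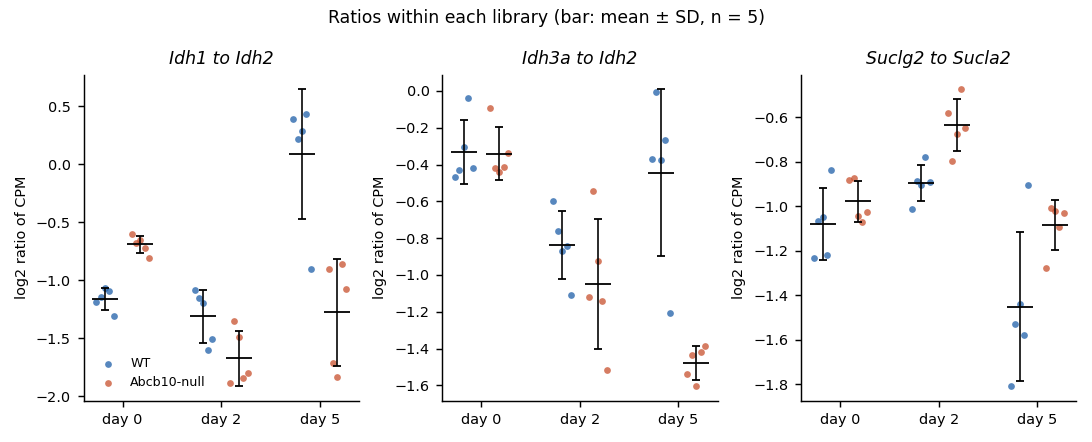
Log2 ratio of CPM within each library (vertical axis) for Idh1 to Idh2, Idh3a to Idh2 and Suclg2 to Sucla2 by day, with WT in blue, Abcb10-null in orange and bars for the mean ± SD (n = 5). In the Idh1 to Idh2 ratio Abcb10-null libraries lie above WT at day 0 and below 4 of 5 WT libraries at day 5, where WT library 5 is at -0.90.

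Among 13 other TCA cycle subunits, all tested, 1 was called higher (Dld) and none lower in Abcb10-null cells at day 2, and 5 higher (Aco1, Dld, Dlst, Fh1 and Ogdhl) and 1 lower (Mdh1) at day 5, beside the shares over all genes of 14.9% and 16.9% at day 2 and 19.8% and 17.8% at day 5. At day 0 Aco1, a cytosolic iron-sulfur enzyme, was at 0.23 ± 0.07 (edgeR adjusted p = 0.0104) and Sdha, a subunit of succinate dehydrogenase, at -0.37 ± 0.13 (adjusted p = 0.0366, called in 4 of 10 fits without 1 library). The median log2 fold change of the 13 was 0.16 and 0.28 at days 2 and 5, beside 0.19 and 0.11 for the 9 genes and -0.00 and -0.02 for all genes tested. Ogdhl, an E1 paralogue of Ogdh, was at 3.85 ± 0.66 CPM in WT against 7.07 ± 1.48 CPM in Abcb10-null cells at day 5 (0.86 ± 0.22, edgeR adjusted p = 0.00742), and was not called with only the libraries at or below 25000 genes (0.57 ± 0.33, adjusted p = 0.311). Mdh1, the cytosolic counterpart of Mdh2, was at 214 ± 41.3 and 144 ± 19.6 CPM at day 5 (-0.57 ± 0.14, adjusted p = 0.00736).

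On the side of succinyl-CoA use, Alas2 rose 60.4-fold in WT and 60.0-fold in Abcb10-null cells from day 0 to day 5, and the interaction was not called (edgeR adjusted p = 0.995). Its level was nonetheless lower in Abcb10-null cells at each day, with 7218, 5427, 6520.3, 6879.8 and 4062 CPM in WT against 3159, 1995, 1979, 2434 and 2187 CPM in Abcb10-null cells at day 5. No libraries overlapped, and the log2 fold change was -1.35 ± 0.07, -1.85 ± 0.32 and -1.37 ± 0.18 at days 0, 2 and 5. At day 2 the Abcb10-null libraries held 235, 45.0, 174, 212 and 122 CPM, against 36.4 to 43.3 CPM in that genotype at day 0. Library 2 of that day also had counts in the most genes of its group (24091), and its part in the result was not tested. Alas2 shares 12.94% of its exon bases with Apex2 on the other strand. Alas1 went the other way at day 0 (0.42 ± 0.10) and was lower at day 5 (-0.59 ± 0.14), where WT held 22.1, 25.6, 23.8, 27.3 and 34.6 CPM and Abcb10-null cells 17.6, 16.6, 17.5, 19.3 and 17.97 CPM. Of 12 genes that use succinyl-CoA or supply it by other routes, 4 were called higher and 2 lower at day 0 (19.7% and 16.2% of all genes), 3 and 2 at day 2 (14.9% and 16.9%), and 2 and 4 at day 5 (19.8% and 17.8%). Aldh6a1, a dehydrogenase of valine breakdown, was at 6.88 ± 0.32 CPM in WT against 12.1 ± 1.65 CPM in Abcb10-null libraries at day 0, without overlap (0.81 ± 0.12, edgeR adjusted p = 4.49e-05). Mut, the methylmalonyl-CoA mutase that makes succinyl-CoA from propionate and branched-chain amino acids, was called higher at all 3 days (0.60 ± 0.06, 0.68 ± 0.14 and 0.50 ± 0.11). Pccb, a subunit of propionyl-CoA carboxylase upstream of it, was at 21.999 ± 4.05 CPM in WT against 51.2 ± 2.99 CPM in Abcb10-null cells at day 5 (1.21 ± 0.13, adjusted p = 2.18e-05). Slc25a38, the mitochondrial glycine carrier of heme synthesis, was called lower at days 0 and 5 (-0.43 ± 0.07 and -0.74 ± 0.21). With only the day 5 libraries at or below 25000 genes, Alas2 (-1.26 ± 0.29, edgeR adjusted p = 0.0334) and Pccb (adjusted p = 0.016) were called at day 5, and Alas1, Mut and Slc25a38 were not (adjusted p = 0.0896, 0.173 and 0.0596).

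Likeness between genes was described as the root mean square difference of their 6 group means on the log2 scale, each centred on its own mean, over 8553 genes with a mean of at least 10 CPM. Of the 9 genes, Suclg1 and Mdh2 were the closest pair (0.16), Cs and Mdh2 the next (0.18), and Idh3a and Ogdh the farthest (1.02). The 3 nearest genes of all were Fam107b, Mplkip and Uspl1 for Idh1 (0.11 each) and Alg5, Mrpl2 and Nt5c3b for Idh2 (0.10, 0.10 and 0.11). For both of these, none of the 8553 genes came within 0.1. Sucla2 had 122 genes within 0.1, with Zfp35, Idh3g and Kif16b nearest (0.04, 0.05 and 0.05). Ogdh had 7, with Tango2, Bard1 and Ube4b nearest (0.07, 0.07 and 0.08), and Suclg2 had 20, with Otud6b, Elp2 and Pde4d nearest (0.05, 0.06 and 0.07). Nearest to Mdh2 were Drg2, Mrpl58 and Tmem238 (0.03, 0.05 and 0.06), to Cs Ccdc9, Coq6 and Mrps24 (0.06, 0.07 and 0.07), to Idh3a Hcls1, Gfm1 and Pdss1 (0.06, 0.08 and 0.09), and to Suclg1 Psma7, B9d2 and Cnot9 (0.06, 0.07 and 0.07).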

How the data were processed

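RNA of WT and Abcb10-null MEL cells was sequenced in 30 libraries. The authors removed ribosomal and globin transcripts from total RNA, built stranded libraries, ran cutadapt on the reads and, per the submitters' processing notes, aligned them with STAR 2.6.1b to GRCm38 and counted reads per gene with featureCounts 1.6.3. The deposited values are raw counts per Ensembl gene, not normalized or filtered. Depletion of globin RNA lowers the globin counts themselves. Over all genes, counting error is small beside the spread between libraries (lowest chi-square per degree of freedom between replicates 6.48).

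Groups came from the sample labels. Each comparison was fitted on its own libraries with edgeR 4.0.16 (R 4.3.3; TMM, filterByExpr, glmQLFit, glmQLFTest, Benjamini-Hochberg adjusted p under 0.05 over all genes tested): 3 between genotypes, 6 between days and 2 interactions. On simulated day 5 data edgeR called 92% of genes changed by a log2 value of 1 and 98% of those changed by 2. It called 6 unchanged genes, and the interaction test called 72% and 96% with 4 unchanged genes. The simulation gave each gene the same dispersion and held no libraries that stood apart. Changes smaller than 1, such as those of the 9 genes between genotypes, were not simulated, so these rates do not apply to them. Ratios used log2(CPM + 0.5). Alternatives were DESeq2 1.42.0, its size factors in edgeR, all genes with at least 1 count, a minimum of 10 counts per library, all 30 libraries in one fit, removal of small non-coding, mitochondria-encoded and globin genes, the replicate number as a block, and each library left out. Copies of the 9 genes were sought with BLAST 2.17.0 (at least 95% identity over 200 bases). Coordinates and exon lengths come from GENCODE M21 and promoters from RefSeq.

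Genes named were the 9, Abcb10, partner subunits, Alas1 and Alas2, the 3 nearest genes by pattern, and from each pathway list the called gene with the largest change in each direction per day among genes with a mean of at least 1 CPM. Other genes of the lists named by symbol were picked after their values were seen. The 9 genes and the lists were chosen with earlier results of these data known. The erythroid marker Ahsp was not used here, and 1 gene of the pathway lists is not reported here.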

Additional observations from a re-analysis of the deposited data

Results flagged for a closer look

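In 5 of 54 sets of 5 libraries (9 genes in 6 groups) 1 library lay far from the others, where chance alone marks about 1 set in 20. WT library 5 of day 5 was the highest of its group for Suclg2 (71.0 CPM against 43.7 to 51.6) and for Mdh2 (108 CPM against 83.8 to 89.1). It also had the lowest globin share and the lowest summed erythroid markers (6908 CPM) of the WT day 5 libraries, and the part of these in the result was not tested. WT library 5 of day 0 was the highest for Cs (140.0 CPM against 98.0 to 109.7), Abcb10-null library 1 of day 0 the lowest for Idh2 (266 CPM against 299.7 to 311), and Abcb10-null library 2 of day 0 the highest for Suclg2 (110.1 CPM against 104 to 105).

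In 6 of 18 tests the change from day 0 differed between genotypes by the interaction term. Over all genes tested, the day 2 interaction was called for 12% in the positive and 10.8% in the negative direction. For the day 5 interaction these shares were 16.8% and 14.7%. From day 0 to day 2 the log2 change of Idh1 was lower in Abcb10-null than in WT cells by 0.37 (interaction -0.37) and that of Idh2 higher by 0.45. From day 0 to day 5 the difference was 0.52 for Cs, -0.99 for Idh1, 0.85 for Idh2 and 0.40 for Mdh2.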

How the results depend on the processing

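Apart from leaving out libraries, 704 recomputed values kept their direction and their side of the threshold, 31 lost a call, 13 gained one and 10 turned in sign. With 1 library left out the numbers were 1052, 78, 14 and 26. The number of the 9 genes called between genotypes at day 0 was 4, and 1 (Idh1) with all 30 libraries in one fit, and at day 2 it was 3, and 5 in that fit. At day 5 it was 4, 0 with only the libraries at or below 25000 genes (an alternative chosen after seeing the data, 2 at an unadjusted p under 0.05), and 2 to 4 without 1 library. From day 2 to day 5 in WT it was 5, 1 with those libraries, and 3 to 7 without 1 library. For the day 2 interaction it was 2, 0 with all genes of at least 1 count and 0 with all 30 libraries in one fit (2 at an unadjusted p under 0.05 in each), and 0 to 3 without 1 library. DESeq2 called 2 genes in its own fit of that interaction. For the day 5 interaction it was 4, 2 with all genes of at least 1 count, 2 with only the libraries at or below 25000 genes, and 2 to 5 without 1 library. Over all genes at day 0, 2550 were called higher and 2092 lower of 12912. With all 30 libraries in one fit they were 1049 and 535 of 14702. At day 2 they were 1944 and 2207 of 13053, and 3200 and 2754 of 14702 in that fit. For the day 2 interaction they were 1679 and 1509 of 13980, and 1368 and 1269 of 14702 in that fit. With at least 1 count they were 1571 and 1805 of 35192. For the day 5 interaction they were 2360 and 2057 of 14020, and 1896 and 1579 of 44544 with at least 1 count. The cause of these shifts was not tested, beside the smaller number of libraries where some were left out.

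All results that turned in sign were uncalled and, but for the day 5 interaction of Ogdh, small. Cs from day 2 to day 5 in Abcb10-null cells (0.01) was -0.0359 with all genes of at least 1 count, -0.0011 under a minimum of 10 counts per library, and -0.0621 to 0.0915 without 1 library. The day 5 interaction of Suclg1 (0.02) was -0.0085 with DESeq2, -0.0069 with its size factors, -0.0271 under a minimum of 10 counts per library, -0.0018 with all 30 libraries, -0.12 with the libraries at or below 25000 genes, and -0.0473 to 0.0716 without 1 library. With the libraries at or below 25000 genes, Idh3a between genotypes at day 5 was 0.0023, the day 5 interaction of Ogdh 0.35, and Sucla2 from day 2 to day 5 in WT 0.0623. Without 1 library these ranged from -0.17 to -0.0055, -0.19 to 0.14 and -0.0724 to 0.06. The day 2 interaction of Cs ranged from -0.13 to 0.0439, Ogdh from day 2 to day 5 in Abcb10-null cells from -0.0711 to 0.22, and the Idh3a to Idh2 ratio at day 0 from -0.0698 to 0.065. Ratio differences whose call changed without 1 library were Idh1 to Idh2 at day 5 (-1.61 to -1.22) and Suclg2 to Sucla2 at day 2 (0.22 to 0.30) and day 5 (0.28 to 0.50).

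Over 75 pairs of same-numbered libraries the correlation of their deviations ran from -0.34 to 0.50, with 10 pairs over 0.1. The median was -0.03, and on this the numbers were not taken as pairs. Libraries of different numbers were not compared in this way, so a pairing of some libraries cannot be told. With the replicate block the called genes were 3, 3 and 4 between genotypes at days 0, 2 and 5, and 4 in place of 6 from day 0 to day 2 in Abcb10-null cells. The ratio tests with the replicate block cannot go below an exact p of 0.0625, so the differences of 0.47 (Idh1 to Idh2, day 0), -1.03 (Idh3a to Idh2, day 5) and 0.26 (Suclg2 to Sucla2, day 2) could not be called there.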

Other observations

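Other genes that feed or drain the cycle were compared between genotypes as well. Of 18 genes of anaplerosis and export, 16 were tested, and in the Abcb10-null clone 5 were called higher and 3 lower at day 0, 5 and 2 at day 2, and 8 and 1 at day 5, beside 19.7% and 16.2%, 14.9% and 16.9%, and 19.8% and 17.8% of all genes tested. Gpt2, the mitochondrial alanine aminotransferase that forms 2-oxoglutarate, was lower at day 0 (-0.47 ± 0.08) and then higher, at 56.1 ± 11.4 CPM in WT against 184 ± 101 CPM in Abcb10-null cells at day 2 (1.66 ± 0.33, edgeR adjusted p = 0.00489) and at 38.7 ± 27.6 and 158 ± 29.5 CPM at day 5 (2.03 ± 0.33, adjusted p = 0.000514). Got1, the cytosolic aspartate aminotransferase, and Pck2, the mitochondrial phosphoenolpyruvate carboxykinase, likewise were called lower at day 0 (-0.45 ± 0.08 and -0.65 ± 0.11) and higher at day 5 (1.86 ± 0.37 and 1.10 ± 0.19). With only the day 5 libraries at or below 25000 genes Gpt2 was called (1.54 ± 0.39, edgeR adjusted p = 0.0463), and Got1 and Pck2 were not (1.13 ± 0.48 and 0.91 ± 0.24, adjusted p = 0.172 and 0.0545). Slc25a10, the mitochondrial dicarboxylate carrier, was called lower at days 2 and 5, at 18.6 ± 3.31 CPM in WT against 8.88 ± 1.27 CPM in Abcb10-null cells at day 5. Me2, the mitochondrial malic enzyme, was at 533 ± 43.0 and 695 ± 32.5 CPM at day 0 (0.38 ± 0.06, adjusted p = 8.42e-05).

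Of 13 genes of pyruvate entry, 12 were tested, and 3 were called higher and 1 lower at day 0, 2 and 1 at day 2, and 1 and 1 at day 5, beside the same shares of all genes. Pdk1, a kinase that switches pyruvate dehydrogenase off, was at 154 ± 7.59 CPM in WT against 219.5 ± 12.999 CPM in Abcb10-null cells at day 0. Pdha1, the catalytic alpha subunit of pyruvate dehydrogenase, was called higher at day 2 (0.47 ± 0.13) and day 5 (0.40 ± 0.10), where no libraries of the 2 genotypes overlapped. Pdp1, a phosphatase that switches the complex on, was at 10.999 ± 2.35 and 22.2 ± 5.97 CPM at day 2 (0.96 ± 0.21, edgeR adjusted p = 0.00642), and Mpc2, a subunit of the mitochondrial pyruvate carrier, was called lower at day 0 (-0.28 ± 0.08). Pdk2, another kinase of the complex, was called lower at days 2 and 5 (-1.53 ± 0.54 and -1.14 ± 0.41), in 2 and 3 of 10 fits that each left out 1 library. With only the day 5 libraries at or below 25000 genes neither Pdha1 (0.31 ± 0.15) nor Pdk2 (-0.03 ± 0.47) was called at day 5 (edgeR adjusted p = 0.223 and 0.978).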
